A study of Homo sapiens with 12 samples.

Results

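The 8 genes followed here encode plasma proteins normally made by the liver, and they were measured in a prostate cancer cell line: the acid glycoproteins ORM1 and ORM2, the carriers AFP and TF, the protease inhibitor SERPINA1, the fibrinogen chain FGB, the protease HABP2 and the apolipoprotein APOH. All 8 listed symbols matched a gene among the 58381 genes of the count files, and 5 of them (ORM2, AFP, SERPINA1, HABP2 and APOH) had enough fragments to be tested, among 19162 tested genes. AFP, ORM2 and HABP2 were listed because of their response when testosterone (T) was withdrawn, so their values in that comparison, and in every comparison that reuses its libraries, are given as a description without a test.

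The cells came from VCaP, an established line from a prostate cancer metastasis. VCaP-T was established over 7 months in 10 nM T, and VCaP-CT was derived from it over 10 months at 0.1 nM T. Both were used after 20 months of culture, VCaP-T at passage 84 and VCaP-CT at passage 73, in RPMI medium whose 10% fetal bovine serum had been stripped with charcoal. There were 4 groups of 3 libraries. VCaP-T was kept in its 10 nM T, or its T was lowered for 48 h to 0.1 nM (depleted VCaP-T). VCaP-CT was kept at its 0.1 nM, or its T was raised for 48 h to 10 nM (rechallenged VCaP-CT). Each line is 1 long-term culture, so line and passage history cannot be told apart. The labels do not say that the replicates were separate cultures, so p-values measure the spread between these libraries, which may be technical.

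In the body, hepatocytes secrete most plasma proteins. Albumin and the related alpha-fetoprotein, encoded side by side on chromosome 4, carry small molecules, and alpha-fetoprotein is made mainly by fetal liver and by liver and germ cell tumours. The acid glycoproteins and alpha-1 antitrypsin rise in the acute-phase response, which cytokines and glucocorticoids drive. Liver transcription factors such as HNF4A and the C/EBP and FOXA families act on the promoters of many of these genes.

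The libraries held 30174831 to 40825204 counted fragments each. Replicate 2 of depleted VCaP-T stood apart, with correlations of 0.9621 and 0.9665 with its group's other libraries (log2 of normalized count + 1, across genes), against at least 0.9917 for every other pair within a group. For the listed genes and for most other depletion values below, the value without it is also given. The prostate identity of the cells was clear, since all 8 defining luminal markers were detected in every library and their summed FPKM (a level scaled for exon length and library size) lay between 1678 and 2671. Of 10 defining hepatocyte markers 4 were detected in every library, with summed levels of 5.60 to 6.31 FPKM in VCaP-T, 16.0 to 20.9 in depleted VCaP-T, 22.5 to 23.6 in VCaP-CT and 6.74 to 7.39 in rechallenged VCaP-CT. ALB and TTR led this sum at 0.1 nM T. HNF4A had no fragment in 3 of the 4 groups, and APOA1, APOA2, CYP3A4 and CYP2E1 stayed at or below 0.0494 FPKM on average in every group. KLK3, the gene of prostate-specific antigen, averaged 482 FPKM in VCaP-T, 250 in depleted VCaP-T, 10.2 in VCaP-CT and 89.6 in rechallenged VCaP-CT.

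The RefSeq promoter table (GRCh38.p14) held entries for 7 of the 8 genes. ORM2 had none. Windows from 250 bases before to 50 bases after each start were searched for the letters GTTAAT, a motif of liver promoters, or their complement. These were found in at least 1 entry of 5 of these 7 genes (AFP, SERPINA1, FGB, HABP2 and APOH). By entry they were found in 7 of 11, the 2 entries of FGB overlapping, against 6.9% of all 34943 promoters. The letters TATAAA stood 29 to 24 bases before the starts of AFP and ORM1 and were found in 11.6% of all promoters. The letters TGTTTAC (FOXA, 3.42% of promoters) and TTCNNNGAA (STAT, 7.66%) matched once each, both in HABP2. No entry held the whole HNF1 motif (0.00572%), TTGCGCAA (C/EBP, 0.152%), CAAAGTCCA (HNF4, 0.383%) or the inverted repeat bound by steroid receptors (0.389%). Both strands were searched, and a match describes letters, not binding. The 250 bases before the start are printed for the 4 tested genes with a match there and for albumin, whose changes are set beside those of AFP below. Capitals mark GTTAAT or its complement ATTAAC and, in AFP, TATAAA.
AFP, chr4:73435971-73436220, plus strand: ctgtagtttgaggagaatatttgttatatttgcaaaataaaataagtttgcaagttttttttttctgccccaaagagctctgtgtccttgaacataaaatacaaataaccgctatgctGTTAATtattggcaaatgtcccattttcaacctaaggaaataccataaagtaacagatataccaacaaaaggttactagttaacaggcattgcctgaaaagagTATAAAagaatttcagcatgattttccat
ALB, chr4:73404037-73404286, plus strand: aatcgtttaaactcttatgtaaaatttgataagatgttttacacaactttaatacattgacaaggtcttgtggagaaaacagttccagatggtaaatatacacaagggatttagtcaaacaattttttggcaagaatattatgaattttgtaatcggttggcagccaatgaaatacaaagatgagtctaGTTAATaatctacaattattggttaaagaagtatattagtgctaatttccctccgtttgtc
APOH, chr17:66229416-66229665, minus strand: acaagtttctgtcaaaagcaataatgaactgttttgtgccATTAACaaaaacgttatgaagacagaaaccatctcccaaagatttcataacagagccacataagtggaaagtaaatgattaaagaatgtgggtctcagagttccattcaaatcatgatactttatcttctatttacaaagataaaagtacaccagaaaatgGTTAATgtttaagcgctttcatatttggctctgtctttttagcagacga
SERPINA1, downstream start, chr14:94388603-94388852, minus strand: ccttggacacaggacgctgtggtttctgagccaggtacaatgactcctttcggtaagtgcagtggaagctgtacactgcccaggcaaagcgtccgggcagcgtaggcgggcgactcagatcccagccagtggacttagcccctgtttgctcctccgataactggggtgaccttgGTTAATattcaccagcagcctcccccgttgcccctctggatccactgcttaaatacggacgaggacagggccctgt
HABP2, downstream start, chr10:113552803-113553052, plus strand: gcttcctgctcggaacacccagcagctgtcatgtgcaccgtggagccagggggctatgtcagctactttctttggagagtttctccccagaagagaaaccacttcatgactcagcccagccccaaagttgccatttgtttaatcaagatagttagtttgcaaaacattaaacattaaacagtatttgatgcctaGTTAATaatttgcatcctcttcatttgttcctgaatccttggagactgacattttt
In AFP these letters lay 132 bases before the start. In ALB they lay 61, in SERPINA1 76 and in HABP2 56 bases before it, and APOH had a pair, 210 and 49 bases before it.

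ORM2 was high at 10 nM T and low at 0.1 nM T in both lines. It encodes alpha-1-acid glycoprotein 2, a plasma carrier of drugs and an acute-phase protein (ENSG00000228278.3, GRCh38 chr9:114329869-114333252, plus strand). Normalized counts (fragments scaled to the mean library) were 262.2, 266.2 and 259.9 in VCaP-T, and 25.9, 37.0 and 18.6 in depleted VCaP-T. VCaP-CT had 5.13, 0 and 3.01, and rechallenged VCaP-CT 118.1, 86.2 and 109.9. No library of one group overlapped with another group, and the order was VCaP-T, rechallenged VCaP-CT, depleted VCaP-T and VCaP-CT. The means of VCaP-T were 9.67 times those of depleted VCaP-T (11.8 times without replicate 2) and 96.8 times those of VCaP-CT. Per length, the level fell from 9.81 ± 0.120 FPKM in VCaP-T to 0.101 ± 0.0963 in VCaP-CT and stood at 3.91 ± 0.618 after rechallenge (SD, n = 3).

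The rechallenge of VCaP-CT compares libraries that the choice of ORM2 on depletion did not use. The fit took its estimate of the spread from all 12 libraries, however, and the gene was listed with earlier results of these data known. On rechallenge ORM2 rose 38.6-fold in mean normalized count, all 3 rechallenged libraries being higher. In edgeR's quasi-likelihood test the log2 fold change was 5.17 (SE 0.41, adjusted p = 3.89e-06). In a fit of the 6 VCaP-CT libraries alone it was 5.15 (SE 0.36, adjusted p = 7.84e-09). The VCaP-CT side rests on 9 fragments in all against 282, and the log2 fold change was 6.04 without replicate 1 of VCaP-CT and 4.61 without its replicate 2. Rechallenge brought ORM2 to 104.8 ± 16.6 normalized counts, below the 262.8 ± 3.21 of VCaP-T with no overlap.

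ORM1, the neighbouring copy 3.4 kb upstream (ENSG00000229314.5, chr9:114323056-114326475, plus strand), encodes alpha-1-acid glycoprotein 1 and was barely detected. It had 14.9, 9.51 and 3.66 normalized counts in VCaP-T and 0, 1.23 and 0 in depleted VCaP-T. VCaP-CT had 1.71, 0 and 1.00, and rechallenged VCaP-CT 4.92, 7.27 and 2.13. The summed fragments were 28, 1, 3 and 13 in that order, too few to pass the filter on low counts, and the only fragment in depleted VCaP-T was in replicate 2. By counting error alone, VCaP-T exceeded depleted VCaP-T 27.0-fold (95% interval 4.47 to 1105) and rechallenged VCaP-CT exceeded VCaP-CT 5.15-fold (1.42 to 28.2). Without the filter, edgeR gave an adjusted p of 0.00380 on depletion and 0.155 on rechallenge, where DESeq2 gave 0.136 for the latter and none for the former. The transcripts of the copies share 286 stretches of 75 bases, 41.4% of those in ORM1 and 41.8% of those in ORM2, and fragments that map to both were not counted. ORM1 made up 3.34% of the fragments of the pair in VCaP-T (exact 95% interval 2.23 to 4.79) and 4.41% in rechallenged VCaP-CT (2.37 to 7.42). Its values are uncertain for this reason, and its 4 group means stood in the order VCaP-T, rechallenged VCaP-CT, VCaP-CT and depleted VCaP-T, with overlap between the first 2 and between the last 2.

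**Figure D1:**
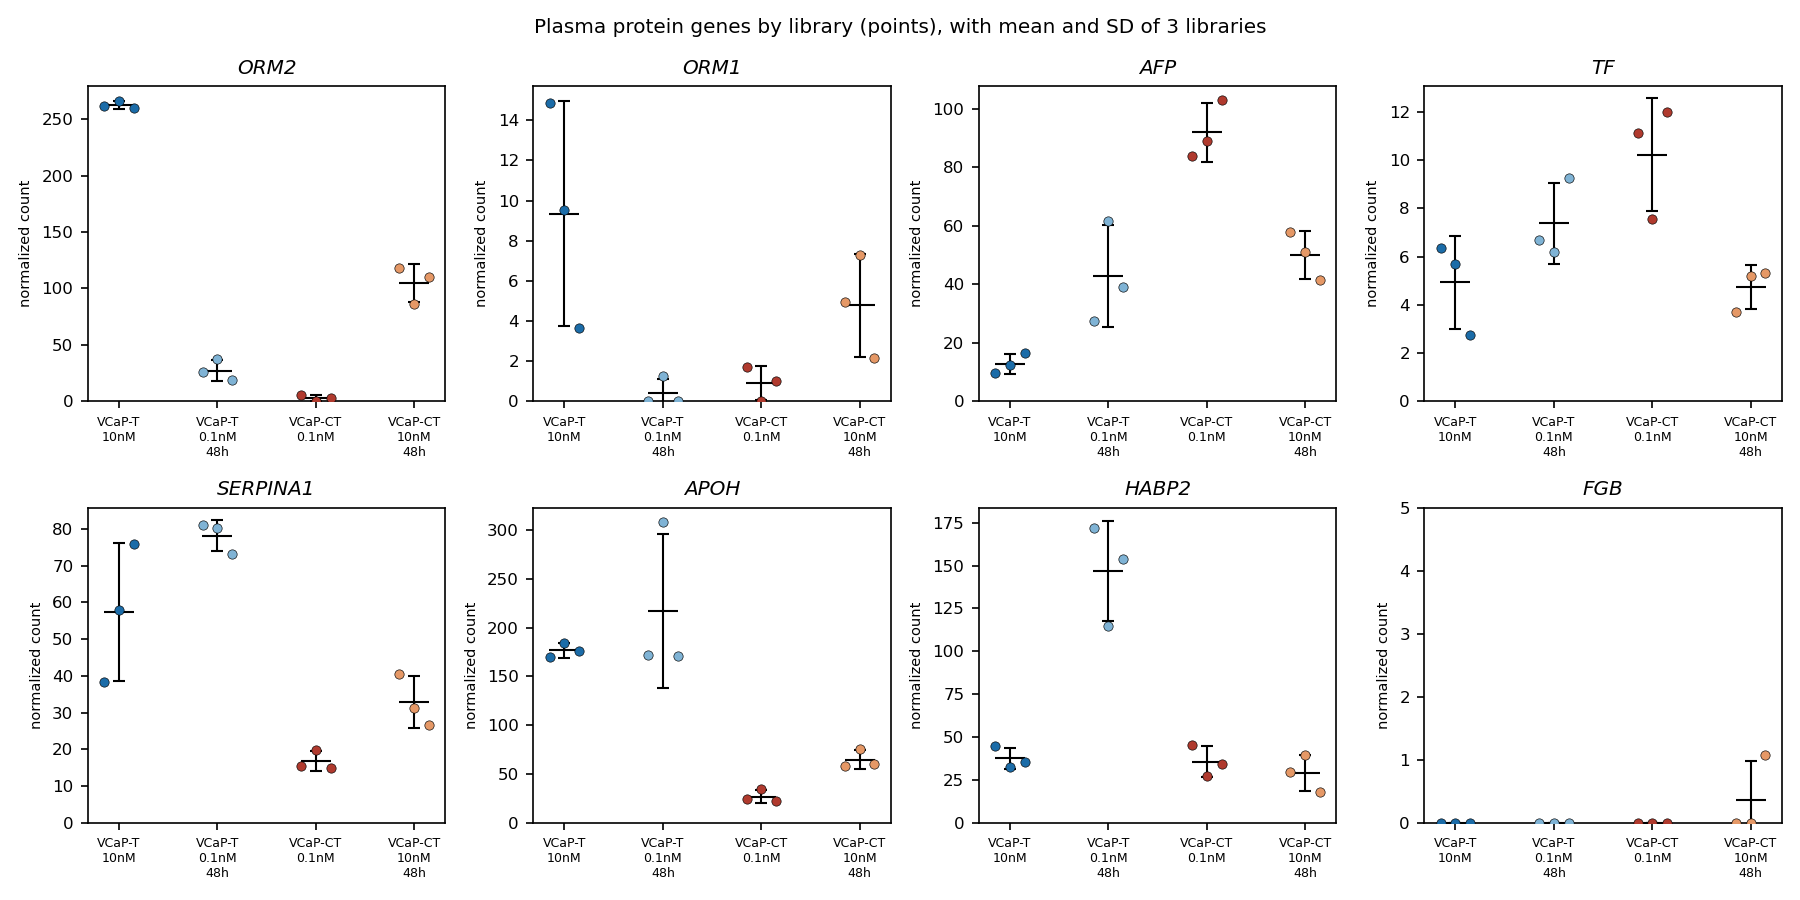
Normalized counts (y axis, a scale of its own in each panel, from 0) of the 8 plasma protein genes in the 4 groups. Points are libraries, and lines show the mean and SD of 3. ORM2 was high in both groups at 10 nM T, AFP was highest in VCaP-CT, HABP2 stood out in depleted VCaP-T, and FGB had 1 fragment in 1 library.

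AFP, alpha-fetoprotein, had the opposite order to ORM2 at its ends (ENSG00000081051.7, chr4:73431138-73456174, plus strand). VCaP-T had 9.55, 12.4 and 16.5 normalized counts and depleted VCaP-T had 27.5, 61.7 and 39.2. VCaP-CT had 83.9, 89.0 and 103.2 and rechallenged VCaP-CT had 57.8, 50.9 and 41.6. VCaP-CT lay above all others and VCaP-T below all others without overlap, while depleted VCaP-T and rechallenged VCaP-CT overlapped. Mean counts were 3.35 times higher in depleted VCaP-T than in VCaP-T (2.61 times without replicate 2) and 7.19 times higher in VCaP-CT. Per length the levels stayed low, at 0.111 ± 0.0303 FPKM in VCaP-T and 0.801 ± 0.0872 in VCaP-CT (SD, n = 3). On rechallenge, AFP had a log2 fold change of -0.88 (SE 0.25), with all 3 rechallenged libraries below all 3 of VCaP-CT, and the adjusted p of 0.0246 did not pass 0.01. The adjusted p was 0.000304 in a fit of the 6 VCaP-CT libraries alone, 0.000403 without replicate 2 and 0.00946 without replicate 1 of depleted VCaP-T, and ranged from 0.000304 to 0.101 over all 19 alternatives.

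Albumin, the main carrier of plasma and the gene 9.7 kb upstream of AFP, moved in the same directions at much higher levels. ALB had 211.3, 232.0 and 233.3 normalized counts in VCaP-T and 1130, 1437 and 1175 in depleted VCaP-T. VCaP-CT had 1669, 1767 and 1704 and rechallenged VCaP-CT had 324.9, 282.6 and 278.4. Depletion raised ALB by 2.46 on the log2 scale (SE 0.11, edgeR adjusted p = 9.47e-08; 2.35 without replicate 2 of depleted VCaP-T) and rechallenge changed it by -2.54 (SE 0.11, adjusted p = 3.29e-08). VCaP-CT exceeded VCaP-T by 2.92 (SE 0.11, adjusted p = 1.80e-09), a comparison that shares a group with each of the others. In FPKM, ALB reached 14.4 ± 0.420 in VCaP-CT, more than any of the 8 listed genes in any group.

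The other neighbours of AFP were less uniform. RASSF6, 115.4 kb downstream and no plasma protein gene, rose by 0.74 on depletion (SE 0.14, adjusted p = 0.00294, and 0.91 without replicate 2) and changed by -0.75 on rechallenge (SE 0.14, adjusted p = 0.00168). ANKRD17, 172.3 kb upstream, did not pass in either (-0.45, SE 0.26, adjusted p = 0.237, and 0.00, SE 0.26, adjusted p = 0.994). AFM, the albumin-family gene of the vitamin E carrier afamin 25.5 kb downstream, averaged 1.42 to 5.50 normalized counts and was under the filter.

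**Figure D2:**
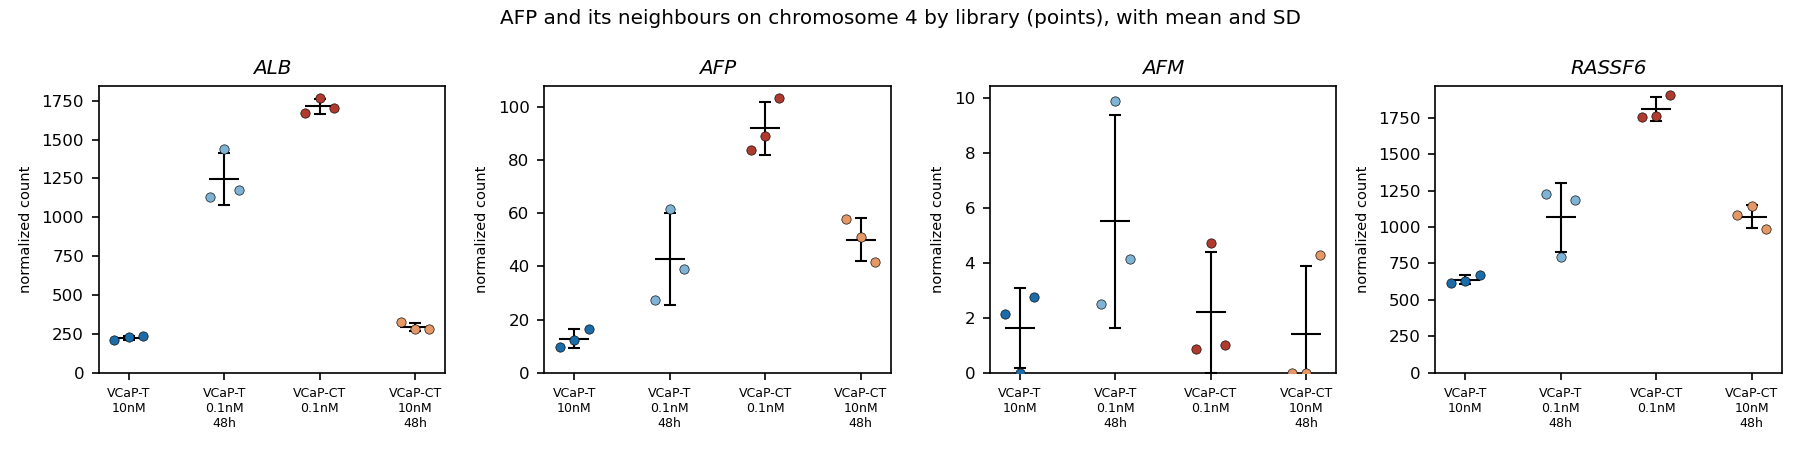
Normalized counts (y axis, a scale of its own in each panel, from 0) of ALB, AFP, AFM and RASSF6 in the 4 groups. Points are libraries, and lines show the mean and SD of 3. ALB stood at 1130 to 1767 in the libraries at 0.1 nM T and at 211.3 to 324.9 in those at 10 nM T, whichever the line.

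TF, the iron carrier transferrin, was present at a trace (ENSG00000091513.15, chr3:133745956-133796640, plus strand). VCaP-T had 6.37, 5.70 and 2.75 normalized counts, depleted VCaP-T 6.68, 6.17 and 9.28, VCaP-CT 11.1, 7.57 and 12.0, and rechallenged VCaP-CT 3.69, 5.19 and 5.33. Summed fragments were 15, 22, 33 and 13. Groups next to each other in the order of the means overlapped, while VCaP-CT lay above both VCaP-T and rechallenged VCaP-CT without overlap. By counting error alone, VCaP-CT exceeded rechallenged VCaP-CT 2.14-fold (95% interval 1.09 to 4.42) and VCaP-T 2.11-fold (1.11 to 4.17). Depleted VCaP-T averaged 7.38 normalized counts, or 7.98 without replicate 2. Without the filter the edgeR log2 fold change on rechallenge was -1.08 (SE 0.51, adjusted p = 0.220, and 0.208 in DESeq2). Its level was at most 0.0111 FPKM on average. FPKM divides by exon length, which was 26199 bases for TF against 760 to 4902 for the other listed genes. This lowers the FPKM of TF beside theirs. The gene of the transferrin receptor, TFRC, was in contrast abundant and testosterone-responsive. TFRC averaged 76.0 FPKM in VCaP-T and 36.6 after depletion, and 38.4 in VCaP-CT and 66.3 after rechallenge. It fell on depletion (-1.05 in log2 units, SE 0.09, adjusted p = 1.55e-05, and -0.95 without replicate 2) and rose on rechallenge (0.79, SE 0.09, adjusted p = 6.73e-05). Of 17 tested iron-handling genes 0 rose and 2 fell on depletion at an adjusted p under 0.01, and 4 rose and 0 fell on rechallenge. The zinc and iron importer SLC39A14 was with TFRC in both (-0.62, SE 0.09, adjusted p = 0.000719, and 0.62, SE 0.09, adjusted p = 0.000430). Among all genes 9.97% passed on depletion and 14.3% on rechallenge. Without replicate 2 of depleted VCaP-T 5 rose and 2 fell on depletion, with SLC39A14 at -0.51. In maintenance media, 1 of the 17 was higher in VCaP-CT than in VCaP-T (14.8% of all genes) and 11 were lower (15.7%).

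SERPINA1, alpha-1 antitrypsin, the main inhibitor of neutrophil elastase, was lower in VCaP-CT than in VCaP-T and did not pass the test in either 48-h comparison (ENSG00000197249.13, chr14:94376747-94390693, minus strand). VCaP-T had 38.2, 58.0 and 75.9 normalized counts, depleted VCaP-T 81.0, 80.3 and 73.2, VCaP-CT 15.4, 19.9 and 15.0, and rechallenged VCaP-CT 40.6, 31.2 and 26.7. VCaP-CT was the lowest group without overlap, and the libraries of VCaP-T overlapped with those of both depleted VCaP-T and rechallenged VCaP-CT. In maintenance media VCaP-CT was lower (log2 fold change -1.78, SE 0.27, adjusted p = 0.000196), as it was at 0.1 nM T (-2.21, SE 0.26, adjusted p = 3.22e-05, and -2.19 without replicate 2 of depleted VCaP-T). At 10 nM T the difference was -0.82 (SE 0.25) and its adjusted p of 0.0216 did not pass. It was -1.04 with an adjusted p of 0.00455 without replicate 1 of VCaP-T, the lowest library, and the adjusted p was 0.00587 without replicate 2 of depleted VCaP-T, in a range of 0.00455 to 0.109 over 19 alternatives. The 48-h changes did not pass: 0.44 on depletion (SE 0.23, adjusted p = 0.190, and 0.41 with 0.153 without replicate 2) and 0.96 on rechallenge (SE 0.29, adjusted p = 0.0304), the latter with all rechallenged libraries above those of VCaP-CT and with an adjusted p of 0.00646 in the 6 VCaP-CT libraries alone and up to 0.123 in other alternatives. Its neighbours SERPINA10 and SERPINA6 had 0 fragments in all 12 libraries. SERPINA11, 51.8 kb away, was higher in VCaP-CT by 0.94 (SE 0.12, adjusted p = 6.58e-05), the other direction.

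APOH, beta-2 glycoprotein I, which binds anionic phospholipids, was second to ORM2 among the listed genes in VCaP-T per length and much lower in VCaP-CT (ENSG00000091583.10, chr17:66212033-66256525, minus strand). VCaP-T had 169.9, 184.4 and 175.7 normalized counts and depleted VCaP-T 171.9, 308.7 and 171.2. VCaP-CT had 24.0, 34.1 and 22.0 and rechallenged VCaP-CT 57.8, 75.8 and 59.7. Both VCaP-T groups lay above both VCaP-CT groups, and rechallenged VCaP-CT above VCaP-CT, without overlap. Its level was 3.76 ± 0.156 FPKM in VCaP-T and 0.569 ± 0.138 in VCaP-CT (SD, n = 3). The line difference was -2.72 in maintenance media (SE 0.26, adjusted p = 5.18e-06), -3.01 at 0.1 nM T (SE 0.26, adjusted p = 2.59e-06, and -2.68 without replicate 2 of depleted VCaP-T) and -1.45 at 10 nM T (SE 0.24, adjusted p = 0.000504). Rechallenge raised APOH by 1.27 (SE 0.28, adjusted p = 0.00589). This last call was near the threshold: the adjusted p was between 0.0102 and 0.0300 when any library of VCaP-T or rechallenged VCaP-CT, or replicate 1 or 3 of VCaP-CT, was left out, and 1.47e-05 at its lowest, without replicate 2 of depleted VCaP-T. The log2 fold change stayed between 1.14 and 1.48 whichever library was left out.

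The depletion value of APOH rested on replicate 2 of depleted VCaP-T. It was 0.29 (SE 0.22, adjusted p = 0.369) with that library and -0.05 (adjusted p = 0.810, the highest of 19 alternatives, the lowest being 0.165) without it, when the depleted mean was 171.6 against 176.7 in VCaP-T. The difference between the lines in their response to testosterone, tested as an interaction (the log2 change from 0.1 to 10 nM T in VCaP-T minus that in VCaP-CT), was -1.56 for APOH (SE 0.36), with an adjusted p of 0.0420 that did not pass. It passed without replicate 2 of depleted VCaP-T (-1.23, adjusted p = 0.000902), without the low-count filter (adjusted p = 0.00756) and in DESeq2 (adjusted p = 0.00239), in a range of 0.000902 to 0.131 over 18 alternatives. For SERPINA1 it was -1.39 (SE 0.37, adjusted p = 0.0726). Thus 0 of the 2 tested genes that were not chosen on depletion passed, although both had an unadjusted p under 0.05, as had 16% of all genes. At the adjusted threshold 0.965% of all genes passed.

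HABP2 stood out in a single group. It encodes hyaluronan-binding protein 2, a circulating serine protease that activates factor VII (ENSG00000148702.14, chr10:113550837-113589602, plus strand). VCaP-T had 44.6, 32.3 and 35.7 normalized counts and depleted VCaP-T 171.9, 114.8 and 153.7. VCaP-CT had 45.4, 27.5 and 34.1 and rechallenged VCaP-CT 29.5, 39.5 and 18.1. Depleted VCaP-T lay above all other groups, 3.91 times VCaP-T in the mean (4.34 times without replicate 2) and 4.12 times VCaP-CT at the same 0.1 nM T. The other 3 groups overlapped with one another. On rechallenge HABP2 did not pass (-0.30, SE 0.30, adjusted p = 0.528). Its 3′ part overlaps NRAP on the opposite strand over 367 bases, 10.04% of its exon length, where fragments were not counted. NRAP, a muscle anchoring protein gene, averaged 106.3 and 248.4 normalized counts in VCaP-T and depleted VCaP-T but 2.12 and 10.7 in VCaP-CT and rechallenged VCaP-CT. HABP2 did not share this low level in VCaP-CT.

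FGB, the fibrinogen beta chain, was not detectable at this depth (ENSG00000171564.11, chr4:154562956-154571086, plus strand). It had 0 fragments in 11 libraries and 1 in replicate 3 of rechallenged VCaP-CT. A count of 0 allows up to 3 fragments in a library, 0.0262 to 0.0388 FPKM over these libraries, for counting error only. Its partner chains beside it on chromosome 4 were alike: FGA had 0 fragments in every library and FGG averaged 0.346 normalized counts in rechallenged VCaP-CT and 0 elsewhere.

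Counting over the set, 2 of the 5 tested genes (ORM2 and APOH) were called higher on rechallenge and 0 lower. A call needed 3 things: a log2 fold change beyond 1, an adjusted p under 0.01 and group medians more than 13 normalized counts apart. Among all tested genes 1.83% were called higher and 3.3% lower. ORM2, AFP and HABP2 were listed for their response to T withdrawal, so these shares are no like background for them. Of the 5 genes not chosen on depletion 2 were tested, and 0 of these were called on depletion, against 3.14% of all genes. In edgeR, 0 of the 2 had an unadjusted p under 0.05, against 35.6% of all genes. SERPINA1 and APOH were called lower in VCaP-CT in maintenance media (7.06% of all genes) and at 0.1 nM T (8.68%), and APOH alone at 10 nM T (7.08%). As a background to the overlaps described above, the ranges of 3 libraries did not overlap in 38% of all genes on depletion and 55.7% on rechallenge. The share was 69% between the lines in maintenance media, 61.7% at 10 nM T and 52.3% at 0.1 nM T. In these bulk libraries, fewer cells with a transcript and less of it per cell cannot be told apart.

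**Figure D3:**
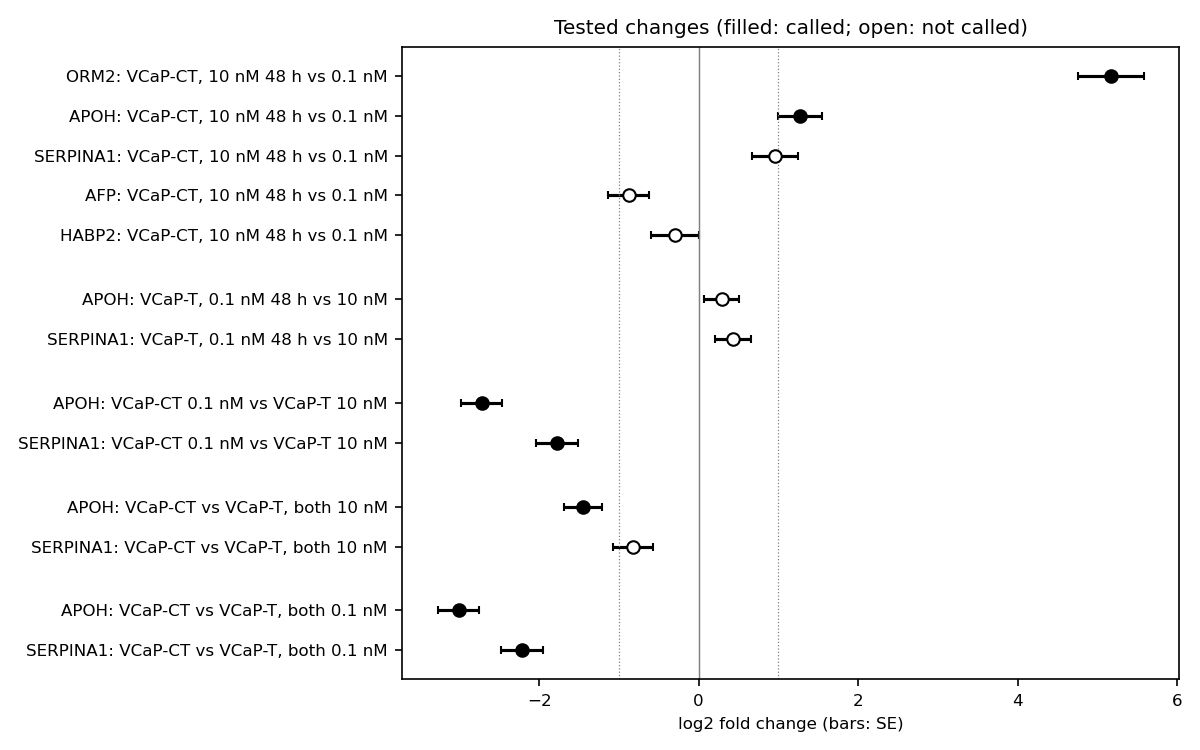
Log2 fold changes (x axis) with SE (bars) for each listed gene and comparison (y axis) that was tested. Filled points were called and open points were not, and dotted lines mark a log2 fold change of 1 in either direction. ORM2 on rechallenge lies at 5.17, and the values of APOH and SERPINA1 between lines lie between -3.01 and -0.82.

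Other plasma protein genes at an adjusted p under 0.01 only rose on depletion but went both ways on rechallenge and between the lines. Of 119 further genes for carriers, acute-phase, coagulation and complement proteins, apolipoproteins and inhibitors, 47 were tested and 21 had no fragment in any library, among them CRP and FGA. On depletion 8 rose at an adjusted p under 0.01 (6.15% of all genes rose) and 0 fell (3.83% fell): ALB, C1R, TTR, SERPINA5, SERPINA4, FGL1, LBP and MST1. The count of 8 became 3, 4 and 5 without replicates 1, 2 and 3 of VCaP-T, 12 without replicate 2 of depleted VCaP-T, and 6 or 7 without another library. It was 1 in a fit of the 6 VCaP-T libraries alone. The median log2 fold change of the 47 was 0.37, against 0.04 for all genes. TTR, the thyroxine and retinol carrier transthyretin, rose by 1.49 (SE 0.21, adjusted p = 0.000528), and the complement protease C1R by 1.02 (SE 0.11, adjusted p = 8.19e-05). The protein C inhibitor SERPINA5 rose by 0.68 (SE 0.12, adjusted p = 0.00228). Without replicate 2 of depleted VCaP-T these were 1.16, 1.04 and 0.64.

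On rechallenge 5 of the 47 rose (7.07% of all genes) and 8 fell (7.19%), with a median of -0.12 against -0.02 for all genes. The count of both was 8 without replicate 2 of VCaP-CT and 7 without replicate 2 of rechallenged VCaP-CT. ALB, TTR (-1.02, SE 0.20, adjusted p = 0.00289), C1R (-1.47, SE 0.12, adjusted p = 3.54e-06) and vitronectin (VTN, -1.37, SE 0.19, adjusted p = 0.000219) were among those that fell. AZGP1, the zinc-binding glycoprotein that prostate also secretes, rose by 1.16 (SE 0.12, adjusted p = 3.55e-05). Heparin cofactor SERPIND1 rose by 1.51 (SE 0.21, adjusted p = 0.000289) and coagulation factor F5 by 1.36 (SE 0.23, adjusted p = 0.000886).

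**Figure D4:**
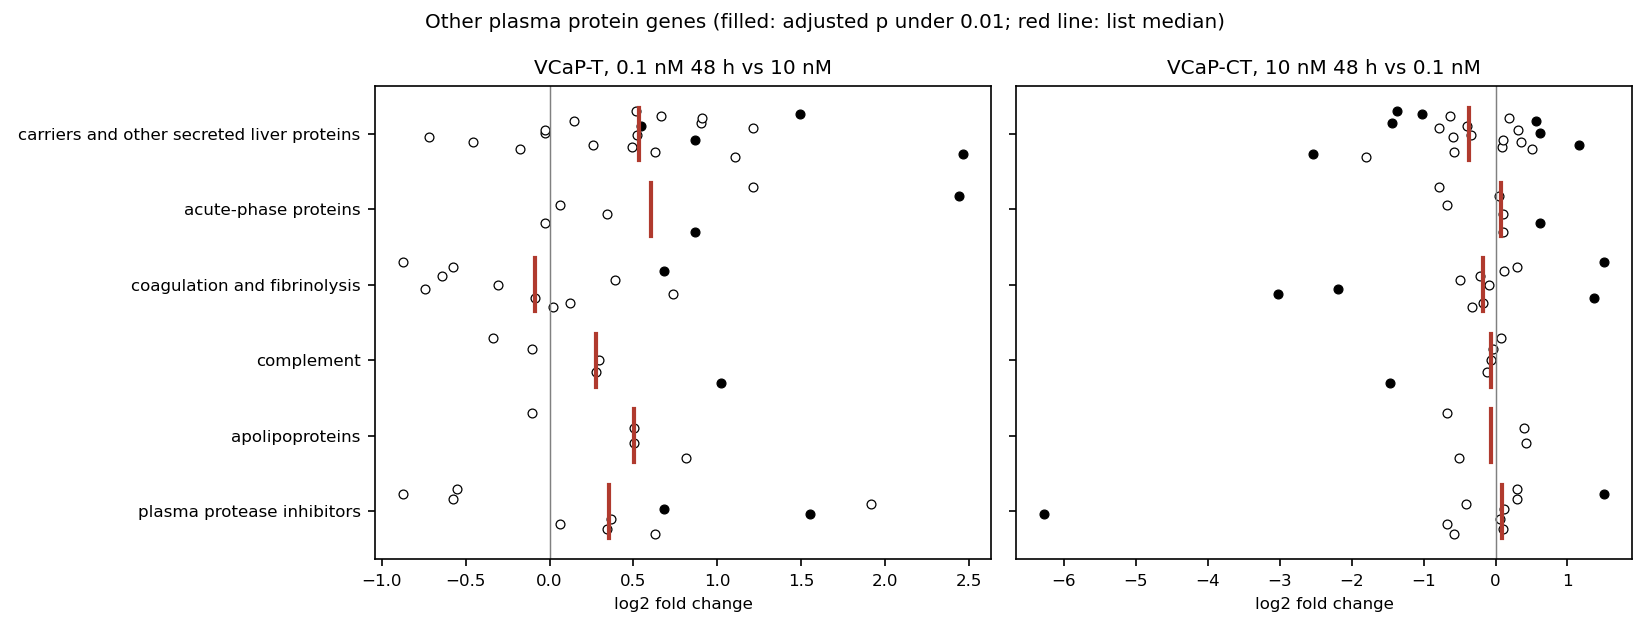
Log2 fold changes (x axis, a scale of its own in each panel) of the tested plasma protein genes other than the 8, by protein class (y axis), on depletion (left) and rechallenge (right). Points are genes, filled where the adjusted p was under 0.01, and red lines are class medians. SERPINA4, at 0 in every rechallenged library, is the point farthest left on rechallenge, where its fitted value depends on the prior count.

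Between the lines in maintenance media, 12 of the 47 were higher in VCaP-CT (14.8% of all genes) and 5 lower (15.7%). The total of 17 became 26 without replicate 2 of depleted VCaP-T, a library that enters this comparison through the shared estimate of the spread and the filter. SERPINA5 was higher by 2.65 (SE 0.12, adjusted p = 5.89e-09), from 71.6 ± 7.26 to 449.9 ± 23.3 normalized counts. F5 was lower (-2.21, SE 0.23, adjusted p = 9.16e-06), from 1630 ± 52.3 to 351.8 ± 43.8. These stood beside SERPINA1 and APOH, which were both lower.

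Of 23 tested liver transcription factor genes, 6 were higher (14.8% of all genes) and 8 lower (15.7%) in VCaP-CT than in VCaP-T at an adjusted p under 0.01. HNF4G was lower, with 389.0 ± 23.9 normalized counts in VCaP-T and 16.3 ± 2.16 in VCaP-CT (log2 fold change -4.56, SE 0.22, adjusted p = 1.54e-08). NR2F2, an orphan nuclear receptor gene, was higher (0.61, SE 0.07, adjusted p = 1.88e-05). On depletion 6 of these genes rose (6.15% of all genes) and 0 fell (3.83%), led by the bile acid receptor gene NR1H4 (1.73, SE 0.27, adjusted p = 0.000870, and 1.53 without replicate 2 of depleted VCaP-T). On rechallenge 1 rose (7.07%) and 2 fell (7.19%). Without that library the counts of genes higher and lower were 9 and 10 between lines, 8 and 1 on depletion, and 3 and 7 on rechallenge, of 24 tested. Their part in the plasma protein values was not tested.

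Of 21 tested acute-phase signalling genes, 2 passed on depletion (9.97% of all genes) and 1 on rechallenge (14.3%), shares near or below those of all genes. Without replicate 2 of depleted VCaP-T, 4 rose and 5 fell on depletion, and 9 rose and 1 fell on rechallenge. SOCS3, a feedback inhibitor of cytokine signalling, rose on depletion (1.22, SE 0.25, adjusted p = 0.00576, and 1.04 without that library) and LIFR, a receptor of the interleukin-6 family, fell (-1.72, SE 0.15, adjusted p = 1.57e-05, and -1.54). LIFR rose on rechallenge (1.98, SE 0.15, adjusted p = 2.84e-06). IL6 itself had no fragment in any library. The glucocorticoid receptor gene NR3C1 was lower in VCaP-CT (-3.72, SE 0.18, adjusted p = 1.41e-08). Its known target TSC22D3 was higher, with 193.8 ± 7.23 normalized counts against 68.2 ± 9.26 in VCaP-T (adjusted p = 2.62e-05).

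Of 33 listed hepatocyte enzyme and transporter genes, 10 were tested, 9 were detected in every library and 6 had no fragment in any, among them FABP1 and OTC. Their summed level ranged from 18.2 to 42.5 FPKM over the libraries. On depletion 1 rose (6.15% of all genes) and 0 fell (3.83%), and on rechallenge 1 rose (7.07%) and 0 fell (7.19%). Without replicate 2 of depleted VCaP-T, 3 rose on depletion and 2 on rechallenge. The hepatic lectin ASGR1 rose on depletion (1.10, SE 0.25, adjusted p = 0.00887, and 0.89 without that library), and HAO1, a peroxisomal glycolate oxidase, rose on rechallenge (1.02, SE 0.12, adjusted p = 6.06e-05). Of 10 tested oncofetal genes, the group AFP is often named with, 3 were higher in VCaP-CT than in VCaP-T (SALL4, PEG10 and GPC3; 14.8% of all genes) and 5 lower (LIN28B, IGF2BP2, SOX9, IGF2BP3 and LIN28A; 15.7%), with a median of -0.59. On depletion 1 rose (SALL4; 6.15% of all genes) and 0 fell (3.83%), and on rechallenge 1 rose (SOX9; 7.07%) and 2 fell (PEG10 and SALL4; 7.19%). With replicate 2 of depleted VCaP-T left out, 3 rose and 1 fell on depletion. SALL4 was lowest and highest in the same groups as AFP, with means of 1.94, 15.0, 94.8 and 16.2 normalized counts in VCaP-T, depleted VCaP-T, VCaP-CT and rechallenged VCaP-CT. SALL4 rose on depletion (2.92, SE 0.57, adjusted p = 0.00392, and 3.00 without that library) and fell on rechallenge (-2.54, SE 0.32, adjusted p = 0.000128).

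Other cell type markers also moved. The 13 intestinal epithelium markers, with 9 tested, summed to 26.8 to 29.4 FPKM in VCaP-T, 49.0 to 54.8 in depleted VCaP-T, 37.3 to 38.9 in VCaP-CT and 18.7 to 20.7 in rechallenged VCaP-CT, with CDX1 at 0. On depletion 3 of them rose (6.15% of all genes) and 0 fell (3.83%), and on rechallenge 1 rose (7.07%) and 3 fell (7.19%). Without replicate 2 of depleted VCaP-T these counts were 5 and 0, and 1 and 5, of 10 tested. The 14 fibroblast, endothelial and blood markers, with 5 tested, summed to between 1.73 and 3.23 FPKM in every library, with KDR and HBB at 0. All 5 tested passed between the lines in maintenance media, PDGFRB, PECAM1 and CD14 being higher in VCaP-CT (14.8% of all genes) and VWF and COL1A1 lower (15.7%). On depletion 2 rose (PECAM1 and COL1A1, against 6.15% of all genes) and 0 fell (3.83%). On rechallenge 1 rose (VWF, against 7.07%) and 2 fell (COL1A1 and PDGFRB, against 7.19%). VWF also fell on depletion when replicate 2 of depleted VCaP-T was left out (-0.29, adjusted p = 0.00926). The part of these markers in the plasma protein values was not tested.

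The tested genes whose levels followed each listed gene most closely were ranked by Pearson's r of log2(normalized count + 1) over the 12 libraries, which fall into 4 groups. For AFP these were CRYZL1 (r = 0.99), PPP2R5C and KHDRBS3. For ORM2 they were TBXAS1 (r = 0.98), the gene of thromboxane synthase, ABHD3 and TUBA3E. SERPINA1 was closest to PNPLA8 (r = 0.97), DAZAP2 and RTN4, HABP2 to SOX4 (r = 0.94), PAPSS1 and AZIN2, and APOH to S100P (r = 0.99), RTN4 and KLF4. S100P averaged 571.9 normalized counts in VCaP-T and 9.01 in VCaP-CT. RTN4 was thus among the closest 3 of both SERPINA1 and APOH.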

How the data were processed

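RNA-sequencing libraries (poly-A, stranded kit, 75 bp paired reads) of 12 VCaP samples were used. Per the submitters' processing notes and the study's methods, the authors aligned reads with STAR 2.5.4b to GRCh38 and counted fragments per gene with featureCounts 1.6.2 and Gencode 28. The deposited gene counts, 1 file per sample, are raw and not normalized; per the file headers, strand was not used, and by that tool's default multi-mapping fragments and those overlapping more than 1 gene were left out. The deposited table of DESeq2 library-size normalized values (signal per gene, 19742 genes) was used only to list neighbouring genes. Totals were 30174831 to 40825204 counts, and intervals cover counting error only.

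Counts of all 12 libraries were fitted in edgeR 4.0.16 (R 4.3.3; TMM, filterByExpr defaults, quasi-likelihood F test, 4 groups), with Benjamini-Hochberg adjustment over 19162 genes. Normalized counts were scaled to the mean effective library size, and FPKM were computed from exon lengths in the count files. SE is the log2 fold change over the root of F. The thresholds were those of the study: adjusted p under 0.01, log2 fold change beyond 1 and medians over 13 normalized counts apart. The interaction and the gene lists used the adjusted p alone. The procedure was tested on simulated data.

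The 8 genes and all gene lists were chosen with earlier results of these data known. Named genes were the 8, up to 4 genes of smallest p per list and comparison, cell type markers, neighbours and the 3 closest genes by correlation. Alternatives (7 settings, among them DESeq2 1.42.0, and leaving out each of 12 libraries) are given at the end.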

Additional observations from a re-analysis of the deposited data

How the results depend on the processing

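The listed genes called on rechallenge numbered 1 to 2 when single libraries were left out and 2 under the other alternatives. Between the lines at 10 nM T they numbered 1 to 2, with SERPINA1 added without replicate 1 of VCaP-T. The interaction gave 0 to 1 when libraries were left out, 1 (APOH) without the low-count filter and 1 in DESeq2. The other plasma protein genes with an adjusted p under 0.01 numbered 3 to 12 on depletion when libraries were left out and 1 in the 6 VCaP-T libraries alone. They numbered 7 to 16 on rechallenge and 16 to 26 between the lines when libraries were left out. The sign of APOH on depletion reversed to -0.045 without replicate 2 of depleted VCaP-T, in a range of -0.045 to 0.44 when libraries were left out. The cause of the other shifts was not tested. Of the single-gene values under alternatives, 265 kept their direction and side of the threshold, 9 newly passed it, 8 no longer passed and 1 reversed. Another scaling moved the median of all genes by at most 0.0522 on the log2 scale.

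Correlations of deviations between libraries that share a replicate number ranged from -0.157 to 0.051, so no pairing by number was visible. These values cannot show whether libraries of the same number were handled together. With the replicate number as a block, the listed genes called on rechallenge numbered 2 (ORM2 and APOH), and the other plasma protein genes passing on depletion 6. Low counts limit TF, ORM1 and FGB.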
